A study of Mus musculus with 8 samples.

Results

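The translation factors described here are the protein-coding genes whose symbol in GENCODE M21 begins with Eif1, Eif2, Eif3, Eif4, Eif5, Eif6, Eef1 or Eef2. They number 68 of the 52338 genes with a value in the deposited table, and 63 of them had a mean of at least 1 FPKM, a fragment count corrected for gene length and library size, the level at which genes were tested. The libraries were RNA sequencing libraries of mouse embryonic stem cells (mESCs), pluripotent cells taken from the early embryo, in a series about the long non-coding RNA linc1393. There were 8 libraries in 4 groups of 2: cells that received sh-linc1393 (sh), sd-linc1393 (sd) or dd-linc1393 (dd), and untreated wild-type cells (control). The labels say neither what sd and dd stand for nor which line the cells came from, and no row of the table was tied to linc1393, so the effect of the treatments on that RNA could not be checked. The controls received no reagent. The labels do not state that paired libraries are independent cultures, so a p-value here measures library-to-library spread alone, part or all of it possibly technical.

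Library totals inferred from the FPKM values, taken as reads assigned to genes, were 13738591 to 20387065 in the sh, sd and dd libraries. In the control libraries of replicate 1 and 2 they were 6415130 and 3658368. Read numbers below are inferred the same way. The libraries stood apart by replicate number. Across the 63 tested members, Spearman correlations were 0.930 to 0.985 for libraries sharing a replicate number, whereas the pair within each group gave 0.736 to 0.850; these describe genes and carry no test. Replicate 2 was therefore set against replicate 1 within the groups, and each treatment is also given within each number. All 12 embryonic stem cell markers were above the filter; together they reached 7071 to 10152 FPKM in replicate 2, against 1515 to 1960 FPKM in replicate 1. Most of that gap was Dppa5a, with 5866 to 8584 FPKM in replicate 2, against 292 to 557 FPKM in replicate 1. The list went both ways: Dppa5a, Tdgf1, Fgf4 and Pou5f1 were called higher in replicate 2 and Sall4 (-1.10) and Zfp42 (-0.62) lower, with a median of -0.07 log2. Of 10 fibroblast markers 3 passed the filter, with sums over the list of 68.6 to 155 FPKM in replicate 2 and 65.6 to 87.1 FPKM in replicate 1, and Pdgfrb (1.51 log2) and Fn1 (0.83) were called higher. The 8 markers of differentiated and germ cells, of which 4 passed, summed to 29.1 to 45.8 FPKM in replicate 2 and 30.5 to 45.1 FPKM in replicate 1. Dazl had the highest level of the tested 4 in each library and was not called, while Sycp3 (2.57 log2) and Ddx4 (1.21) were called higher in replicate 2. No marker was at 0 in every library, and the part of other cells in the differences below was not tested. In bulk RNA, fewer cells of a type and less RNA per cell cannot be told apart.

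Protein synthesis starts when eIF2, loaded with GTP and initiator tRNA, joins the small ribosomal subunit together with eIF1, eIF1A, eIF3 and eIF5. The eIF4 factors bind the mRNA cap and unwind the leader, the subunit scans to a start codon, and eIF5B brings in the large subunit. During elongation eEF1A carries tRNAs to the ribosome, the eEF1B subunits recharge eEF1A with GTP, eEF2 moves the ribosome along the mRNA, and eIF5A helps at stretches that are hard to translate. Phosphorylation of eIF2 by 4 kinases, and of the cap-blocking 4E-BPs by mTOR, sets the rate of initiation in stem cells as in other cells.

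Start regions are shown for 6 members that differed between the replicate numbers and for Eif5a2, 60 bases before to 20 bases after the start that RefSeq lists (GRCm38.p6, mm10 coordinates), since promoters are where members that move together could share letters. Capitals mark a match to a searched motif. Of the 68 members, 52 had a RefSeq window.
Eef1a1 (chr9:78481705-78481784, minus strand): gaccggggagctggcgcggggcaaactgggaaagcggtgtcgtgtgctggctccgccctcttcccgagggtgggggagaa
Eef2 (chr10:81176571-81176650, plus strand): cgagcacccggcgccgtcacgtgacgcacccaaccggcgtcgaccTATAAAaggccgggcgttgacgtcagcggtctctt
Eif3d (chr15:77970805-77970884, minus strand): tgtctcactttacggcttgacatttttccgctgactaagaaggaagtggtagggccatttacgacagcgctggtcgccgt
Eif2b5 (chr16:20498757-20498836, plus strand): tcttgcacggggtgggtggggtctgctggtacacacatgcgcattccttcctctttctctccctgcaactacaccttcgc
Eif4a1 (chr11:69672404-69672483, minus strand): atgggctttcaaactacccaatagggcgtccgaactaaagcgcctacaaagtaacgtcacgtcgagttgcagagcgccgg
Eif2s3x (chrX:94212632-94212711, minus strand): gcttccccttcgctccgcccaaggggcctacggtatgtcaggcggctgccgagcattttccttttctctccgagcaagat
Eif5a2 (chr3:28781217-28781296, plus strand): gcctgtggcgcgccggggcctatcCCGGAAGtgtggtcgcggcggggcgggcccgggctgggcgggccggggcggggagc

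In the full windows of 250 bases before to 50 after the start, the letters CCGGAAG or their reverse CTTCCGG, the core bound by ETS-family factors, were searched. They were present in 15 of 52 members (28.8%) and in 9.12% of all 27025 genes with a window. Each gene was counted once, at its first listed start, and the 27025 genes were not filtered by expression. The letters TATAAA or TTTATA, those of a TATA box, were present in 5 of 52 members (9.62%) and in 14.2% of the same 27025 genes. Both motifs were searched on both strands and do not overlap one another in their letters. By the replicate comparison given next, the ETS letters were in 8 of 20 tested members with a window that were higher in replicate 2, 1 of 6 that were lower and 6 of 25 that were not called. Of the shown members TATAAA was in Eef2 and CCGGAAG in Eif5a2; Eif3d holds CCGGAAG outside the stretch printed.

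The most abundant members over the 8 libraries were Eef1a1 (mean 1448 FPKM), Eef1b2 (395), Eef2 (339), Eif5a (291) and Eif4a1 (196). Which of them led depended on the replicate number. Eef1a1, the main eEF1A gene, ranked 1 among the members in all 4 replicate 2 libraries and 5, 2, 2 and 5 in replicate 1 of sh, sd, dd and control. Eif5a ranked 12, 12, 21 and 6 in replicate 2 of sh, sd, dd and control, and 1 in all 4 replicate 1 libraries. Summed over the Eef members, the level was 4826, 4514, 3803 and 3105 FPKM in replicate 2 of sh, sd, dd and control, against 676, 925, 970 and 583 FPKM in replicate 1. Summed over the Eif members it was 2310, 2342, 2321 and 2000.2 FPKM in replicate 2, against 2327, 2599, 2532 and 2334 FPKM in replicate 1. The Eef sums did not overlap between the numbers, while the Eif sums were lower in replicate 2 in each group, by a much smaller margin. Single genes weighed heavily in these sums. Eef1a1 made up 34.5% to 44.0% of all member FPKM in replicate 2 and 6.85% to 12.1% in replicate 1. Eif5a made up 0.667% to 3.21% in replicate 2 and 13.0% to 17.2% in replicate 1. Members took 1.58% to 2.21% of reads in replicate 2 and 1.13% to 1.37% in replicate 1.

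**Figure D1:**
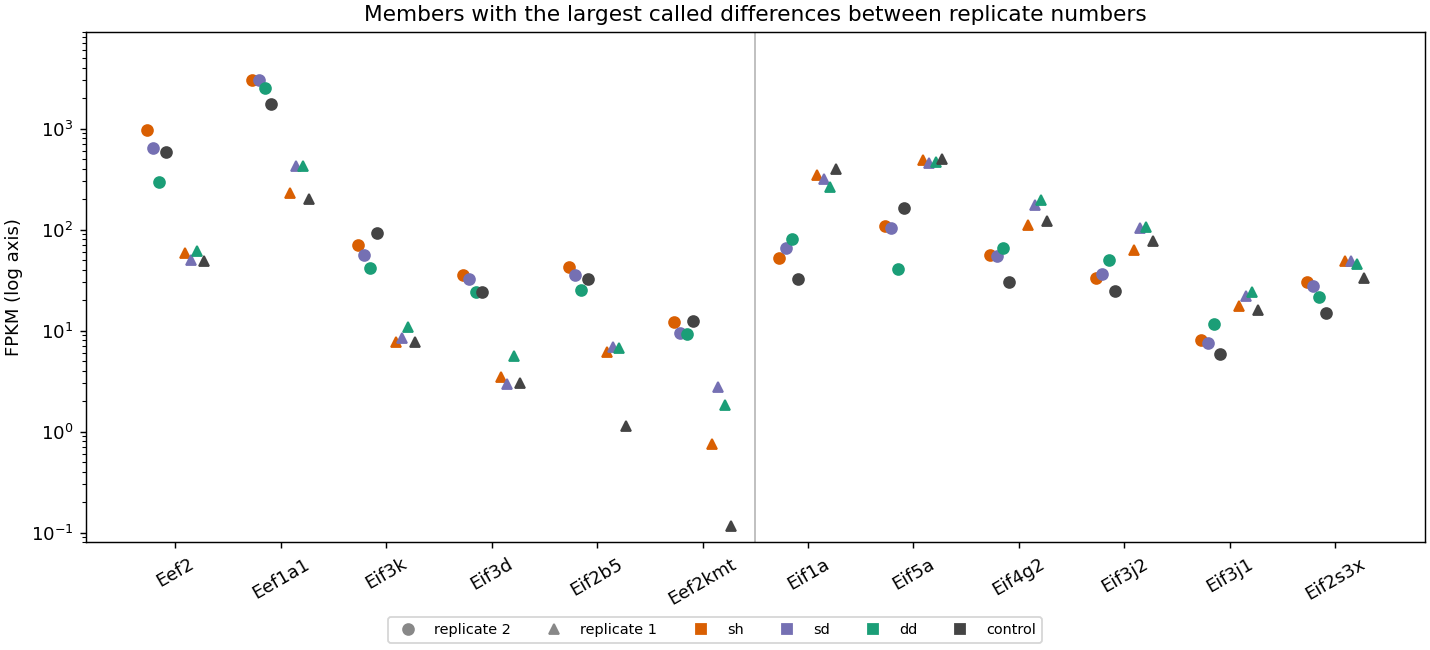
Level in FPKM (log axis) of the 6 higher and 6 lower members with the largest called differences between the replicate numbers, one point per library, circles for replicate 2 and triangles for replicate 1, coloured by group. In all 12 genes the 4 circles and the 4 triangles do not overlap, but the genes were picked for this difference. The share of all genes without overlap was not computed. Of all tested genes, 49.7% were higher in replicate 2 in all 4 groups and 18.4% lower, against 47.6% and 22.2% of the tested members. Eef1a1 lies at 1760 to 3019 FPKM in replicate 2 and 200 to 424 FPKM in replicate 1.

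Between the replicate numbers, elongation factors and most eIF3 subunits were higher in replicate 2, while Eif1a, Eif5a and the eIF4 genes Eif4g2, Eif4a1 and Eif4e2 were lower. With group as a term, 36 of the 63 tested members passed limma's test (adjusted p under 0.05 over all 14561 genes), 27 higher and 9 lower in replicate 2, and 27 did not. The share is 57.1%, close to the background: 61.3% of all genes passed, 46.6% higher and 14.6% lower. Here and below, all genes means every gene tested, coding or not, whereas the members are protein-coding. Shares over coding genes alone were not computed. The members' median difference was 0.47 on the log2(FPKM + 1) scale, against 0.73 over all genes. Quantile normalization, which gives all libraries the same distribution of values, brought the median of all genes to 0.02 and that of the members to -0.22, and the split to 17 higher and 20 lower members (27.6% and 29.8% of all genes). Called the same way in both scalings were 17 higher and 9 lower members, 27.0% and 14.3%, against 27.6% and 14.6% of all genes. Only Eef1b2 was called in opposite directions, at 0.77 and at -0.58 after quantile normalization. Of the other 37 members, 22 kept the direction of their difference and 15 turned. Some of the 37, Eif3a and Eif4a3 among them, were called in neither scaling. For the rest the call depends on the scaling. The 9 lower members are called lower in both.

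Elongation factors gave the largest higher differences. Eef2, whose protein moves the ribosome one codon along (chromosome 10, 81176631 to 81182498), had 959, 648, 297 and 589.8 FPKM in replicate 2 of sh, sd, dd and control, against 58.6, 50.5, 60.7 and 48.3 FPKM in replicate 1. The lowest replicate 2 library, dd, was still above every replicate 1 library. The log2 difference was 3.38 (SE 0.29; limma adjusted p = 2.24e-05). Eef1a1 (chromosome 9, 78478449 to 78489151) had 3011, 3019.5, 2509.9 and 1760.4 FPKM in replicate 2 of sh, sd, dd and control, against 232, 424, 424 and 199.96 FPKM in replicate 1. Its log2 difference was 3.05 (SE 0.22; limma adjusted p = 8.46e-06) and replicate 2 was higher in all 4 groups. Of its 31-base stretches 51.5% occur in other genes' transcripts, and of those of Eef2 21.2%, so the assignment of those reads between genes is uncertain.

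All 5 tested eEF1 genes were called higher in replicate 2, against 46.6% of all genes. In both scalings 3 of them (Eef1a1, Eef1d and Eef1g) were higher, against 27.6% of all genes. Eef1g, a structural subunit of the eEF1B exchange complex, had 271, 266, 287 and 195 FPKM in replicate 2 of sh, sd, dd and control, against 60.5, 77.0, 84.2 and 50.1 FPKM in replicate 1. Other genes' transcripts hold 47.6% of its 31-base stretches, so the assignment of those reads is uncertain. Eef1d, which encodes a nucleotide exchange subunit, averaged 19.4 ± 3.97 FPKM in replicate 2 and 3.93 ± 0.940 FPKM in replicate 1 (SD, n = 4 each). The other exchange subunit gene, Eef1b2, averaged 499 ± 60.7 FPKM in replicate 2 and 292 ± 41.0 FPKM in replicate 1 (SD, n = 4 each), and this is the gene whose direction turned with the scaling. Thus the genes of one exchange complex differed in size of difference, from 0.77 log2 for Eef1b2 to 2.05 for Eef1d. Eef1e1, whose product belongs to the tRNA synthetase complex, averaged 48.7 ± 11.1 FPKM in replicate 2 and 25.4 ± 6.07 FPKM in replicate 1 (SD, n = 4 each).

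Of the enzymes that modify elongation factors, Eef2kmt and Eef1akmt4 were called higher, and Eef2kmt in both scalings. Eef2kmt, which methylates eEF2, had 12.1, 9.50, 9.25 and 12.6 FPKM in replicate 2 of sh, sd, dd and control, against 0.761, 2.73, 1.83 and 0.116 FPKM in replicate 1. Its log2 difference was 2.46 (SE 0.37; limma adjusted p = 5.07e-04), the control library of replicate 1 held only 2 of its reads, and 22.7% of its stretches are shared, chiefly with Alg1 on the other strand. Eef2k, the kinase that inactivates eEF2, lay between 0.702 and 1.95 FPKM in replicate 2 and between 0.0491 and 1.41 FPKM in replicate 1, and was not called.

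The eIF3 complex, the scaffold that holds the other factors on the small subunit, divided into 9 genes called higher, 2 called lower and 3 not called. Over all genes 46.6% were called higher and 14.6% lower. Eif3k had 71.0, 56.0, 42.1 and 93.5 FPKM in replicate 2 of sh, sd, dd and control, against 7.77, 8.36, 10.8 and 7.68 FPKM in replicate 1 (log2 difference 2.74, SE 0.30, limma adjusted p = 7.23e-05). Eif3d, a subunit that can itself bind the cap of some mRNAs, had 35.4, 32.5, 24.0 and 24.3 FPKM in replicate 2, against 3.502, 2.99, 5.57 and 3.01 FPKM in replicate 1 (2.67, SE 0.28, limma adjusted p = 5.87e-05). Both genes were higher by 1.87 log2 or more in every group, and 40.2% of the stretches of Eif3d are shared, chiefly with Gm17638 on the other strand. The other 7 higher subunits, Eif3c, Eif3f, Eif3g, Eif3h, Eif3i, Eif3l and Eif3m, had differences of 1.17 to 1.87 log2. After quantile normalization 7 of the 9 were still called, without Eif3c and Eif3h, and 27.6% of all genes were higher in both scalings. The 3 genes not called included Eif3a, the largest subunit and the core of the complex, at 25.1 ± 8.70 FPKM in replicate 2 and 22.9 ± 8.50 FPKM in replicate 1 (SD, n = 4 each), and Eif3b and Eif3e.

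The lower eIF3 genes were the paralogs Eif3j1 and Eif3j2, which encode a loosely bound subunit. Eif3j1 had 7.98, 7.48, 11.6 and 5.81 FPKM in replicate 2 of sh, sd, dd and control, against 17.5, 22.2, 23.9 and 16.1 FPKM in replicate 1 (-1.20, SE 0.24, limma adjusted p = 0.00236). Eif3j2 had 33.5, 36.1, 49.5 and 24.6 FPKM in replicate 2, against 62.4, 105, 107 and 76.4 FPKM in replicate 1 (-1.27, SE 0.23, limma adjusted p = 0.00156). Their ratio overlapped between the numbers, at 0.207 to 0.238 in replicate 2 and 0.211 to 0.281 in replicate 1. Since 94.9% of the stretches of Eif3j2 and 53.6% of those of Eif3j1 occur in other transcripts, mainly each other's, the 2 genes are not independent measurements and the split of reads between them is uncertain.

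Of the eIF2 genes, which carry the initiator tRNA, Eif2s2 was called higher and Eif2s3x lower. Eif2s3x, the X-linked gene of the GTP-binding subunit, had 30.6, 27.8, 21.3 and 14.8 FPKM in replicate 2 of sh, sd, dd and control, against 49.3, 48.9, 45.6 and 32.9 FPKM in replicate 1 (-0.91, SE 0.23, limma adjusted p = 0.00767). Its Y-linked copy Eif2s3y averaged 15.2 ± 3.99 FPKM in replicate 2 and 9.45 ± 2.45 FPKM in replicate 1 (SD, n = 4 each) and was not called. The X to Y ratio was 1.15 to 1.86 in replicate 2 and 2.70 to 7.62 in replicate 1, without overlap, while 35.6% of the stretches of Eif2s3x and 0.448% of those of Eif2s3y are shared. Eif2s1, the subunit that the eIF2 kinases phosphorylate, averaged 40.9 ± 8.85 FPKM in replicate 2 and 46.0 ± 9.48 FPKM in replicate 1 (SD, n = 4 each), called lower only after quantile normalization (-0.79, limma adjusted p = 0.0120). Eif2s2 averaged 192 ± 68.5 FPKM in replicate 2 and 89.7 ± 12.5 FPKM in replicate 1 (SD, n = 4 each), and was called only without that normalization.

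The subunits of eIF2B, which reloads eIF2 with GTP, did not move together. Eif2b5, its catalytic subunit (chromosome 16, 20498817 to 20509323), had 42.4, 35.6, 25.5 and 32.2 FPKM in replicate 2 of sh, sd, dd and control, against 6.09, 6.91, 6.66 and 1.14 FPKM in replicate 1 (2.64, SE 0.35, limma adjusted p = 2.62e-04). None of its stretches is shared with another gene. Eif2b3, which pairs with it, averaged 7.39 ± 2.52 FPKM in replicate 2, against 0.569 ± 0.526 FPKM in replicate 1, and Eif2b4 13.1 ± 0.869 and 4.52 ± 0.350 FPKM (SD, n = 4 each). These 3 were higher in both scalings, as were 27.6% of all genes. Eif2b1 (0.42 log2) was not called, and Eif2b2 (-0.56) was called lower only after quantile normalization (-1.06). None of the 4 eIF2 kinase genes was called in the first scaling, with differences from -0.46 for Eif2ak1 to 0.64 for Eif2ak2, and after quantile normalization Eif2ak1 was called lower (-1.17). Of the alternative tRNA carriers, Eif2d was called higher (1.07) in the first scaling only, and Eif2a (-0.39) was called lower only after quantile normalization.

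The genes for start-site selection went both ways. Eif1a, an autosomal eIF1A gene, had 52.5, 66.0, 80.5 and 32.5 FPKM in replicate 2 of sh, sd, dd and control, against 346, 314, 266 and 394 FPKM in replicate 1, the largest lower difference of any member (-2.55, SE 0.30, limma adjusted p = 1.19e-04). The X-linked paralog Eif1ax averaged 23.8 ± 6.46 FPKM in replicate 2 and 25.4 ± 6.13 FPKM in replicate 1 (SD, n = 4 each) and was called lower only after quantile normalization (-0.64, limma adjusted p = 0.0385). Eif1a exceeded Eif1ax 1.95 to 3.09 times in replicate 2 and 8.68 to 20.5 times in replicate 1. Eif5b, which joins the ribosomal subunits, had 16.7, 11.9, 13.4 and 8.58 FPKM in replicate 2 of sh, sd, dd and control, against 4.11, 3.97, 4.19 and 0.991 FPKM in replicate 1 (1.73, SE 0.26, limma adjusted p = 5.62e-04). Eif1, which guards against wrong start codons, averaged 139.8 ± 29.9 FPKM in replicate 2 and 60.2 ± 14.5 FPKM in replicate 1 (SD, n = 4 each; 1.21 log2), and was not called after quantile normalization. Its paralog Eif1b was also called in the first scaling only (1.65), with 0.554 FPKM in the control library of replicate 1 from 4 reads. Eif5, which triggers GTP hydrolysis by eIF2, averaged 26.8 ± 7.35 FPKM in replicate 2 and 42.2 ± 11.7 FPKM in replicate 1 (SD, n = 4 each); its difference of -0.63 (SE 0.22, limma adjusted p = 0.0330) was between -0.69 and -0.55 in every group although the levels overlap. It lost the call without a filter on low values (limma adjusted p = 0.0990), without the group term (0.0756) and without any one of the sh, sd or dd libraries (0.0634 to 0.133).

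The eIF4 cap group here holds cap-complex genes together with their paralogs. None of its 10 tested genes was called higher, against 46.6% of all genes in the first scaling. In both scalings 3 were called lower, against 14.6% of all genes, and of these Eif4g2 and Eif4e2 are such paralogs. Eif4g2, whose product resembles eIF4G but lacks the part that binds the cap protein, had 55.8, 54.2, 65.2 and 30.1 FPKM in replicate 2 of sh, sd, dd and control, against 111, 175, 197 and 121 FPKM in replicate 1 (-1.55, SE 0.24, limma adjusted p = 5.62e-04). Eif4a1, the main RNA helicase of initiation, had 138, 172, 126 and 119 FPKM in replicate 2, against 283, 222, 232 and 276 FPKM in replicate 1 (-0.87, SE 0.22, limma adjusted p = 0.00781). Its paralog Eif4a2 averaged 127 ± 31.2 FPKM in replicate 2 and 92.4 ± 24.8 FPKM in replicate 1 (SD, n = 4 each) and was not called. Eif4a1 stood at 0.801 to 1.42 times Eif4a2 in replicate 2 and at 2.11 to 5.07 times in replicate 1, and 31.1% of its stretches are shared, chiefly with Eif4a-ps4. Eif4e2, a cap-binding paralog known for repressing translation, averaged 16.6 ± 2.13 FPKM in replicate 2 and 31.8 ± 4.38 FPKM in replicate 1 (SD, n = 4 each).

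The cap-binding protein gene Eif4e itself averaged 21.0 ± 5.84 FPKM in replicate 2 and 31.8 ± 6.89 FPKM in replicate 1 (SD, n = 4 each). It was not called in the first scaling (-0.59, limma adjusted p = 0.0832) and was lower after quantile normalization (-1.16, limma adjusted p = 0.00819), as were Eif4b and Eif4h, which assist the helicase. The ratio of Eif4e to Eif4e2 was 0.925 to 1.95 in replicate 2 and 0.601 to 1.39 in replicate 1. Eif4g1, the scaffold of the complex, averaged 5.27 ± 3.22 FPKM in replicate 2, with 0.907 FPKM in dd, and 3.51 ± 0.806 FPKM in replicate 1 (SD, n = 4 each). Of the eIF4E inhibitors, Eif4ebp1 averaged 163 ± 34.3 FPKM in replicate 2 and 83.7 ± 10.8 FPKM in replicate 1 (SD, n = 4 each), called in the first scaling only (0.94 log2, and 0.02 after quantile normalization). Eif4ebp2 averaged 15.7 ± 3.36 FPKM in replicate 2 and 16.1 ± 1.63 FPKM in replicate 1 (SD, n = 4 each), so Eif4ebp1 exceeded it 6.36 to 15.3 times in replicate 2 and 4.16 to 5.86 times in replicate 1. Eif6, which keeps free large subunits from joining, averaged 23.4 ± 6.09 FPKM in replicate 2 and 9.21 ± 0.932 FPKM in replicate 1 (SD, n = 4 each) and was called higher in both scalings.

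**Figure D2:**
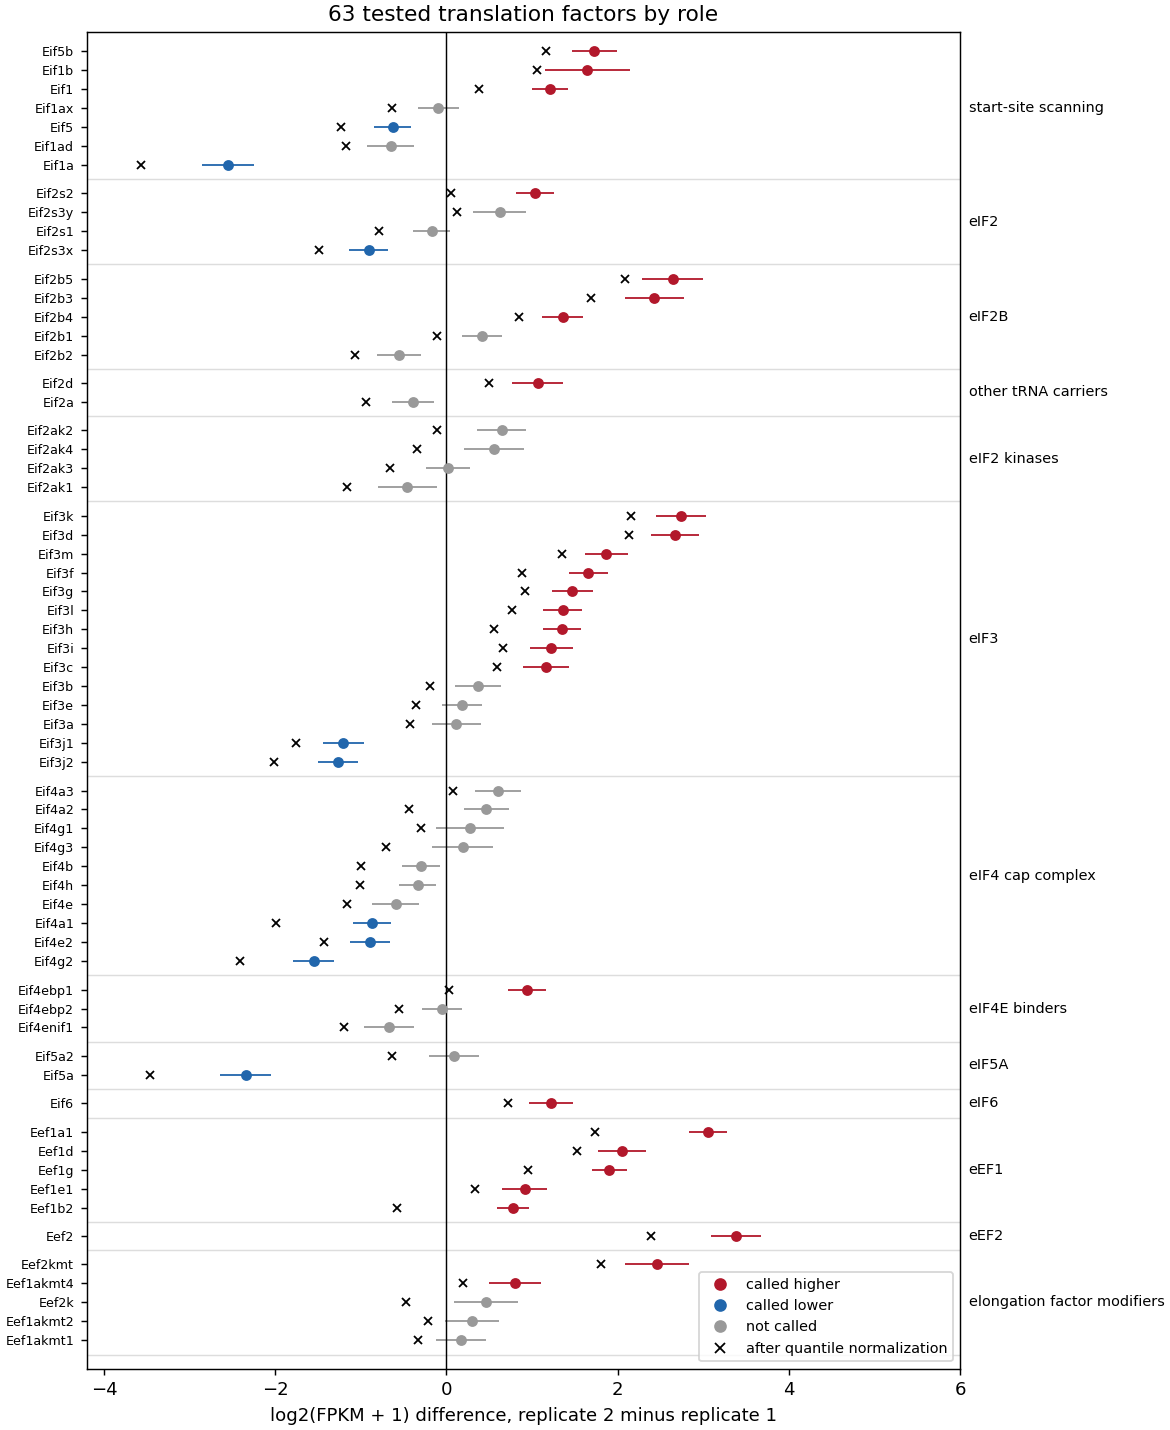
Difference in log2(FPKM + 1), replicate 2 minus replicate 1, of the 63 tested members by role, as a point with its standard error (red called higher, blue called lower, grey not called), and the same after quantile normalization as a cross. The crosses lie left of the points. The eEF1, eEF2 and most eIF3 genes stay right of 0, except Eef1b2 in eEF1. No gene of the group labelled eIF4 cap complex, which includes paralogs, is called higher.

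Eif5a and Eif5a2 encode the translation factor that carries the modified amino acid hypusine, and they behaved differently. Eif5a (chromosome 11, 69916714 to 69921958) had 108, 103, 40.8 and 164 FPKM in replicate 2 of sh, sd, dd and control, against 489, 458, 463 and 501 FPKM in replicate 1. The replicate 1 libraries lay within a narrow range and all above replicate 2, whose lowest value was in dd (-2.35, SE 0.30, limma adjusted p = 1.85e-04). Eif5a2 (chromosome 3, 28781276 to 28798846) had 3.79, 2.86, 5.72 and 1.79 FPKM in replicate 2, against 1.78, 3.46, 7.95 and 1.46 FPKM in replicate 1. Its levels overlapped between the numbers, and its difference of 0.09 (SE 0.29, limma adjusted p = 0.812) turned to -0.64 after quantile normalization and -0.06 with voom, neither called. Eif5a exceeded Eif5a2 by 28.5, 36.1, 7.14 and 91.5 times in replicate 2 of sh, sd, dd and control, and by 274, 132, 58.2 and 344 times in replicate 1. Within each number the ratio was lowest in dd and highest in control. Stretches shared with other genes made up 7.84% of Eif5a and 0.14% of Eif5a2.

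The 2 enzymes that make hypusine on eIF5A moved the other way from Eif5a. Dhps, which does the first step, had 10.04, 7.65, 3.84 and 10.1 FPKM in replicate 2 of sh, sd, dd and control, against 2.51, 1.16, 2.20 and 0 FPKM in replicate 1, and was called higher in both scalings (1.93, SE 0.42, limma adjusted p = 0.00384). Dohh, which does the second, had 10.1, 10.8, 8.43 and 18.4 FPKM in replicate 2, against 5.40, 5.62, 4.51 and 3.12 FPKM in replicate 1 (1.16, SE 0.31, limma adjusted p = 0.0108; not called after quantile normalization).

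**Figure D3:**
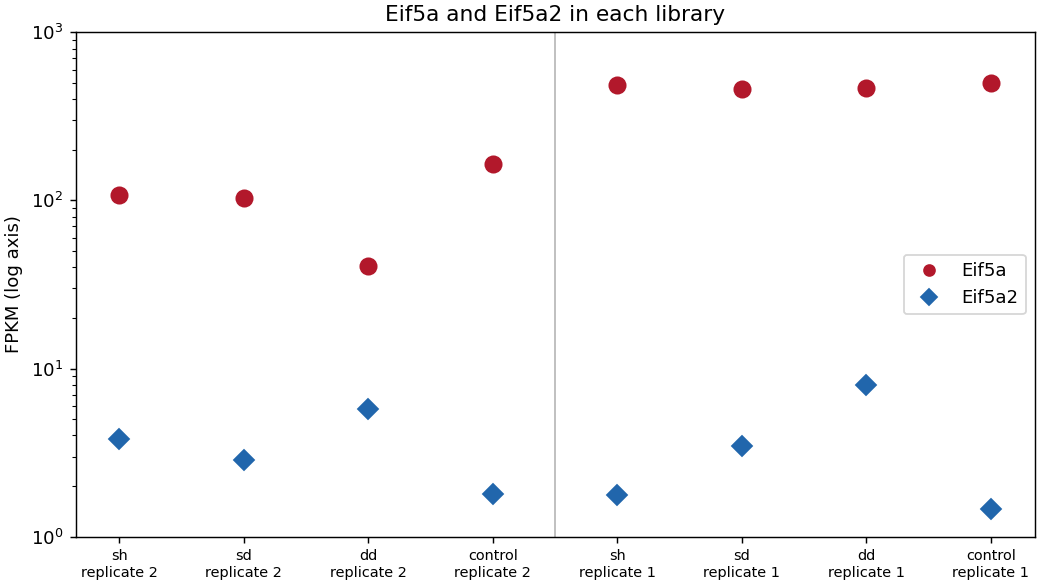
Level in FPKM (log axis) of Eif5a (circles) and Eif5a2 (diamonds) in each of the 8 libraries, replicate 2 on the left and replicate 1 on the right. Eif5a lies at 40.8 to 164 FPKM in replicate 2, against 458 to 501 FPKM in replicate 1, and Eif5a2 is highest in dd within each number, at 5.72 and 7.95 FPKM.

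The comparisons of sh, sd and dd with control asked which factors differed after each linc1393 reagent. No member was called in any of them: 0 of 63 by limma in sh, sd and dd, against a background of 0% of all 14561 genes in each (percent called 0). The same count of 0 was found for sd against sh, dd against sh and dd against sd (percent called 0 in each). At an unadjusted p under 0.05 there were 0, 0 and 1 members in sh, sd and dd against control, out of 32, 50 and 83 genes. With the replicate number as a block, limma also called 0 members and 0 genes, and 4, 5 and 11 members had an unadjusted p under 0.05, out of 480, 945 and 1310 genes. The voom fit on recovered reads called 0 members, with and without the block.

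More members lay above control than below. In sh, 46 of 63 tested members had a positive difference (73.0%, against 65.5% of all genes), with a median of 0.29 log2 against 0.15 over all genes. In sd it was 54 of 63 (85.7% against 62.9%), with a median of 0.38 against 0.17, and in dd 48 of 63 (76.2% against 53.6%), with a median of 0.37 against 0.06. These comparisons share the control libraries. Among genes with a mean of at least 5 FPKM, the medians of 52 members in sh, sd and dd were 0.28, 0.39 and 0.40. Over all genes at that level they were 0.19, 0.27 and 0.23, higher than the 0.15, 0.17 and 0.06 above. The median of the 63 members was positive within each number, at 0.40 in replicate 2 and 0.17 in replicate 1 for sh, 0.27 and 0.52 for sd, and 0.27 and 0.43 for dd. The libraries of the treated group lay wholly above control for 8, 15 and 15 members in sh, sd and dd (8.4%, 11.1% and 11.2% of all genes), and wholly below for 0, 2 and 1 (2.13%, 2.69% and 4.72% of all genes). Of the 12 stem cell markers 0 were called by limma in each comparison with control, 1, 0 and 0 had an unadjusted p under 0.05 in sh, sd and dd, and their medians were 0.19, 0.31 and 0.36 log2. The one was Pou5f1, the pluripotency factor Oct4, singled out after its values were seen. Pou5f1 had 24.2 and 14.7 FPKM in sh, 17.8 and 129.8 in sd, and 21.0 and 53.1 in dd, against 83.1 and 251 FPKM in control (replicate 1, then 2), differences of -2.87, -1.55 and -2.08 log2 (limma adjusted p = 1 each). Sox2, likewise singled out, had 19.7 FPKM in replicate 2 of sh and 177 to 371 FPKM in the other libraries. The part of these markers in the members' shift was not tested. Without control replicate 1 the members' medians, in the fit without a block, were -0.04 in sh, 0.05 in sd and 0.07 in dd; with the block they were 0.30, 0.34 and 0.35.

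By role, all 7 start-site genes were positive in each of the 3 comparisons, none past the test. For differences from control, SE and adjusted p are from the fit without the block unless stated. The gap between replicate numbers therefore enters them. Eif5 had 41.5 and 25.4 FPKM in sh, 46.6 and 28.7 in sd, and 54.2 and 35.5 in dd, against 26.5 and 17.8 FPKM in control (replicate 1, then 2). Each treated library was above the control library of its number, and the dd difference was 0.98 log2 (SE 0.64; limma adjusted p = 1). Eif1b differed most in dd (2.24, SE 1.28, limma adjusted p = 1), the mean of 0.53 within replicate 2 and 3.95 within replicate 1, where control held 4 reads. Of the eIF3 genes 11 of 14 were positive in sh and 12 of 14 in both sd and dd. Eif3a had 18.4 and 30.9 FPKM in sh, 35.3 and 24.1 in sd, and 21.4 and 32.3 in dd, against 16.4 and 13.2 FPKM in control (replicate 1, then 2), wholly above control in all 3. Its log2 differences were 0.66, 0.94 and 0.79 in sh, sd and dd, each with SE 0.60 and limma adjusted p = 1.

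Eif5a2 gave the lowest unadjusted p among the members. It had 7.95 and 5.72 FPKM in dd, against 1.46 and 1.79 FPKM in control (replicate 1, then 2), from 766 and 586 reads in dd and 47 and 33 in control. The dd libraries lay above all other libraries, and the difference from control was 1.57 log2 (SE 0.52, limma unadjusted p = 0.0213, adjusted p = 1), 1.27 within replicate 2 and 1.87 within replicate 1. With the block the limma unadjusted p was 0.00437 and the adjusted p 0.553. In sd the levels were 3.46 and 2.86 FPKM (0.66 log2 from control) and in sh 1.78 and 3.79 FPKM (0.48 log2, overlapping control), in replicate 1 and 2. Eif5a went the other way in dd, with 463 and 40.8 FPKM against 501 and 164 FPKM in control (-1.05, SE 1.49, limma adjusted p = 1), a gap of -1.98 within replicate 2 and -0.11 within replicate 1.

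Among the modifiers, Eef1akmt2, a lysine methyltransferase of eEF1A, lay wholly above control in all 3 treatments. It had 8.13 and 12.9 FPKM in sh, 19.5 and 10.6 in sd, and 11.8 and 18.4 in dd, against 3.98 and 7.75 FPKM in control (replicate 1, then 2). The differences were 0.77, 1.23 and 1.26 log2 (SE 0.63 each; limma adjusted p = 1 each). Eef2k lay below control in sd, by a margin smaller than the rounding for the closest libraries, at 0.909 and 1.41 FPKM, and in dd, at 0.986 and 0.702 FPKM, against 1.41 and 1.88 FPKM in control, gaps of -0.30 and -0.52 log2 (SE 0.66 each, limma adjusted p = 1). In sh it had 0.0491 and 1.95 FPKM, the first from 5 reads. Eif4g3, a further eIF4G gene, was wholly below control in sd by only -0.12 log2, and Eif2a was wholly above control in sh by 0.50 log2 and in dd by 0.67 log2 (SE 0.58 each, limma adjusted p = 1). Among elongation factors, Eef1a1 had differences of 0.49, 0.93 and 0.80 log2 in sh, sd and dd (SE 1.84 each), and Eef2 0.49, 0.10 and -0.33 (SE 1.999 each), all with a limma adjusted p of 1. These wide SEs, without the block, include the large gap of both genes between the replicate numbers.

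**Figure D4:**
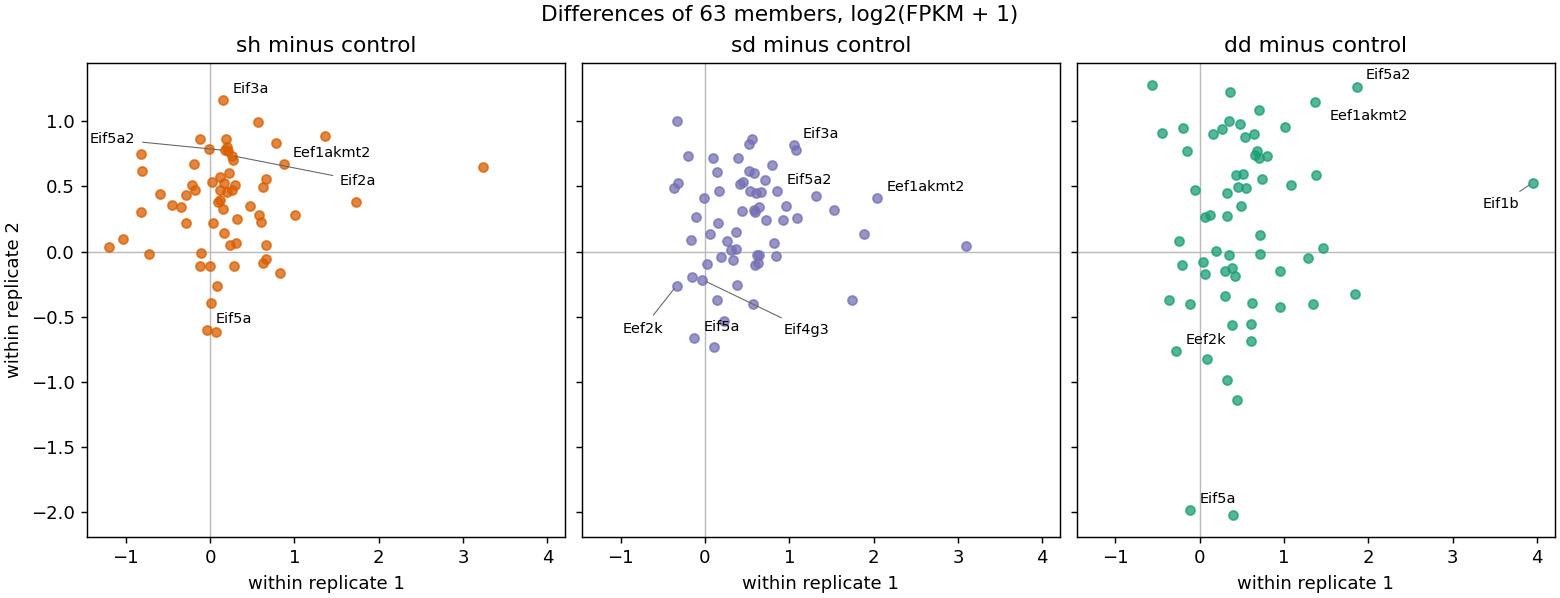
Difference in log2(FPKM + 1) of the 63 tested members, within replicate 1 (horizontal) and within replicate 2 (vertical), for sh, sd and dd minus control, one point per gene, with the genes named by rule labelled. Eif5a2 in dd lies at 1.87 and 1.27, upper right; Eif5a in dd lies near 0 within replicate 1 and at -1.98 within replicate 2.

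Members that were lower in replicate 2 tended to have longer 3′ UTRs (the untranslated part after the stop codon) in the longest coding transcript. The median length was 416 bases for the 27 higher members, 2134 for the 9 lower and 977 for those not called. Across the 63 members the Spearman correlation between the replicate difference and this length was -0.48, and across 9934 tested protein-coding genes it was -0.45. With GC content it was 0.41 across the members and 0.47 across those genes, and with transcript length -0.37 and -0.44. These are descriptions across genes of the same libraries and carry no test, and the members follow the slope of the other genes. Eif5a, with a 3′ UTR of 633 bases and a GC content of 55.0%, was lower all the same, as the plot of difference by length shows. So was Eif4a1, with 537 bases and a GC content of 48.1%.

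**Figure D5:**
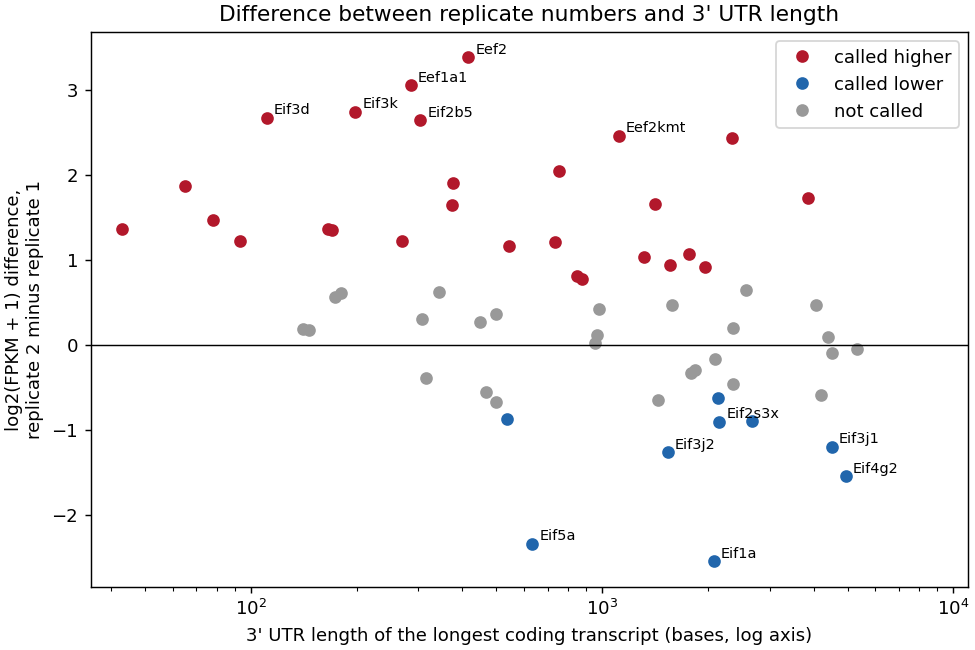
Difference in log2(FPKM + 1), replicate 2 minus replicate 1, against the 3′ UTR length in bases (log axis) for the 63 tested members, red called higher, blue called lower, grey not called. Eef1a1, Eef2 and Eif3d sit at lengths of 285, 416 and 111 bases, and Eif4g2 at 4942 bases.

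The wider pathway was read from a list of 50 names of other translation genes, which holds Gcn1 also under its older name Gcn1l1. Of these names 49 were found and 46, all protein-coding, were tested. The list was chosen with earlier results of these data known. None was called by limma between any treatment and control or between treatments, with or without the block, and without it 0 had an unadjusted p under 0.05 in each. In replicate 2 against replicate 1, 6 were called higher (13.0%, against 46.6% of all genes) and 14 lower (30.4%, against 14.6%), with a median of 0.04 log2 against 0.73 over all genes. In both scalings 4 were higher (8.70%, against 27.6% of all genes) and 14 lower (30.4%, against 14.6%). The 3 lowest were regulators of initiation. Pdcd4, an inhibitor of the eIF4A helicase, had 5.25, 7.04, 12.2 and 5.06 FPKM in replicate 2 of sh, sd, dd and control, against 519, 203, 162 and 576 FPKM in replicate 1 (-5.31, SE 0.46). Impact, which restrains the activation of the eIF2 kinase Gcn2, had 12.8 to 31.3 FPKM in replicate 2 and 451 to 638 FPKM in replicate 1 (-4.63, SE 0.29). Paip1, which links the poly(A)-binding protein to eIF4A, had 6.34 to 11.1 FPKM in replicate 2 and 89.4 to 254 FPKM in replicate 1 (-4.22, SE 0.28). All 3 differences were larger than any lower difference of a member, with limma adjusted p between 4.58e-06 and 2.20e-05.

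The termination factors Etf1 (-1.71) and Gspt1 (-1.53), which release the finished protein, were also lower in replicate 2. So were Mcts1, Dph6, Larp1, Bzw1, Rps6kb1, Paip2, Ddx3x, Mcts2 and Abce1, by -1.48 to -0.78 log2. Rps6, a small-subunit protein, had 451.7 to 897 FPKM in replicate 2 and 108 to 142 FPKM in replicate 1 (2.25 log2) and was higher in both scalings, as were Dph5, of the enzymes that modify eEF2 to diphthamide, and Ppp1r15a, which guides the phosphatase of eIF2. Dph3, of the same diphthamide pathway, was called higher in the first scaling only.

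The 5 members under the filter were Eef1a2, Eef1akmt3, Eif4e1b, Eif4e3 and Eif4ebp3, and they had no test. Eef1a2, the eEF1A gene of muscle and nerve, had 0.549, 1.75, 0 and 2.75 FPKM in replicate 2 of sh, sd, dd and control, and 0 in replicate 1 except for 0.0748 FPKM in control. Eif4e1b, an oocyte form of the cap protein, had 0.0435 to 0.849 FPKM in replicate 2 and was listed at 0 in all 4 replicate 1 libraries, as was Eif4ebp3. A zero count is compatible with up to 3 reads, which in a 1 kb gene is 0.147 to 0.820 FPKM depending on the library, and the floor of longer genes is lower. Of the 40 values of these 5 genes 15 were 0, and 17 of the other 25 rested on more than 3 reads.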

How the data were processed

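Illumina libraries were made from total RNA, 2 in each of 4 groups of mouse embryonic stem cells. Per the submitters' processing notes, CASAVA 1.4 and HISAT2 were used with the mm10 genome; the counting tool was not given in the sources used here, nor was the annotation. The authors deposited 1 table of FPKM values per gene for all libraries; its 58420 rows include 6082 with no value.

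From the deposited FPKM, 52081 of 52338 genes were matched by identifier to GENCODE M21. Genes with a mean of at least 1 FPKM were fitted on log2(FPKM + 1) with limma 3.58.1 in R 4.3.3, two-sided, all 4 groups together, with Benjamini-Hochberg adjustment over 14561 genes and a threshold of 0.05. Fold changes on this scale understate changes of low genes. Values multiplied by exon length were divided by a step fitted to the low values of each library and rounded to whole reads. A voom fit used these reads as an alternative. Before rounding, 98.3% to 98.9% of values under 100 reads were whole within 0.02, with the step itself fitted to give whole reads. Replicate 2 was compared with replicate 1 with group as a term. The replicate numbers pair the samples: deviations from the group means correlated at 0.750 to 0.893 over the 6 pairs of groups, each above 0.1, so values with the number as a block are given too.

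The fits were run on data simulated from the fitted model, with large differences planted in genes above low levels. That run does not speak to small differences or to members at low levels. Alternatives were another pseudocount, other filters, quantile normalization, voom, no group term, the block and leaving out each library. Both genes of each paralog pair were named, with the 6 higher and 6 lower members of largest called difference, the 3 higher and 3 lower members of smallest p and separate libraries in each comparison with control, the 5 most abundant, a scaffold or catalytic member of each complex, and the called genes of the other translation list. Further members stand as examples of their role, picked with their values in view. The members and lists were chosen with earlier results of these data known. Intervals and floors cover counting error only.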

Additional observations from a re-analysis of the deposited data

Results flagged for a closer look

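In 5 of 64 sets of 4 libraries with the same replicate number, checked over 32 genes, the highest or lowest library lay apart from the others by Dixon's 95% criterion, and chance gives about 1 in 20. The control library of replicate 1, the second shallowest, held 3 of them. Eif2b5 had 1.14 FPKM there, with 6.09 FPKM in the nearest library. Eif5b had 0.991 FPKM there, with 3.97 FPKM in the nearest library. Eef1a2 had 0.0748 FPKM there, from 1 read, and 0 in the other replicate 1 libraries; with 3 values at 0 any read meets the criterion, so this one says nothing of that library. Eif4g3 had 0.211 FPKM in the sh library of replicate 1, with 1.43 FPKM in the nearest library. Eif6 had 14.4 FPKM in the dd library of replicate 2, with 25.5 FPKM in the nearest library.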

How the results depend on the processing

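With the replicate block, as without it, 0 members were called in each of the 6 comparisons among treatments and control, and the block changed no other call. Quantile normalization gave member medians of 0.19 for sh minus control, 0.23 for sd minus control, 0.26 for dd minus control, 0.068 for dd minus sd and -0.22 for replicate 2 minus replicate 1. Among the 15 members whose replicate difference it turned were Eif5a2 (-0.64), Eif4a2 (-0.44), Eif4g1 (-0.29), Eif4g3 (-0.71) and Eif3a (-0.43), none of them called. Eef1b2 also turned, to -0.58, and was called lower. Voom gave -0.059 for Eif5a2. The cause was not tested. Leaving out each library without the block gave medians of -0.15 to 0.57 for sh minus control, 0.048 to 0.61 for sd minus control, 0.072 to 0.61 for dd minus control, -0.31 to 0.56 for sd minus sh, -0.27 to 0.50 for dd minus sh and -0.18 to 0.22 for dd minus sd. Replicate differences then ranged from -0.15 to 0.25 for Eif5a2, -0.13 to 0.33 for Eif4g3, -0.084 to 0.33 for Eif3a, -0.21 to 0.039 for Eif1ax and -0.15 to 0.038 for Eif4ebp2. Against control, Eif5a ranged from -1.40 to 0.77 in sh, -1.47 to 0.67 in sd and -2.78 to 0.69 in dd, and, over both fits, Eif4g3 from -0.36 to 0.12 in sd. With the replicate block, leaving out each library gave medians of 0.11 to 0.45 for sh minus control and -0.099 to 0.13 for dd minus sd, and Eif5a differences of -0.81 to 0.18 in sh and -0.89 to 0.099 in sd; Eif4g3 turned in sd with the block only. Where this left a group with 1 library, that library was assumed to vary like the others. Depth limits the low members, most of all in the control libraries.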
